A study of Mus musculus with 3 samples.

Results

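The genes described here encode 10 proteins of the cardiac sarcomere, the contractile unit of heart muscle: the troponins Tnnt2, Tnni1, Tnni3 and Tnnc1, the cardiac actin Actc1, the myosin heavy chains Myh6 and Myh7, and the myosin light chains Myl2, Myl4 and Myl7. They were chosen by gene name. The arrays carried 12 probes for these genes among 39429 probes for 30119 gene names. Of the 12, 10 probes, 1 for each gene, were well above background in both genotypes on all 3 arrays. The other 2, a second probe for Myh6 (chr14:55584132-55584191 of mm9) and for Myl2 (chr5:122555230-122555289), were well above background in the mutant on 1 array and in wild type on none.

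The RNA came from mouse embryoid bodies, balls of embryonic stem cells that differentiate while floating in the medium, grown for 10 days in suspension without LIF, a cytokine that keeps mouse stem cells undifferentiated. Wild-type control bodies were compared with bodies labelled Dido3deltaCT+HADidoNT, in which the Dido3 protein lacks its C-terminal end and the N-terminal region shared by the Dido proteins, with its PHD domain, is overexpressed. The labels give neither what drives that overexpression nor how many cell lines were used. There were 3 biological replicates per genotype, and each of 3 two-colour arrays held 1 mutant and 1 wild-type RNA, with the mutant RNA in the Cy5 channel on array 2 and in the Cy3 channel on the other arrays. Array 2 is thus the only array with its dye order, so the replicate and the dye order cannot be told apart. A ratio is log2 of mutant over wild type on 1 array, and its error is the SD over the 3 arrays.

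The sarcomere is built of thin filaments of actin, which carry the troponin complex, and thick filaments of myosin. Calcium binds troponin C, which shifts troponin I and troponin T and frees actin for the myosin heads, and the light chains steady the lever of the myosin head. The heart uses several isoforms of each protein. In the mouse, slow skeletal troponin I (Tnni1) is the fetal form that cardiac troponin I (Tnni3) replaces after birth, beta-myosin (Myh7) gives way to alpha-myosin (Myh6) in the ventricle, Myl7 and Myl4 come to mark the atria, and Myl2 and Myl3 the ventricles, although chambers share several of them in the early heart tube. Contracting clusters of cardiomyocytes are a familiar outcome of embryoid body culture.

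Across the arrays, the ratios of the 25496 probes kept for the test had SDs of 0.91, 0.79 and 0.88, and no spot was saturated. Across kept probes, arrays 1 and 3 correlated more closely (r = 0.80) than arrays 1 and 2 (0.38) or 2 and 3 (0.21). Probes are not independent replicates. Array 2 held 25 spots with a local background above 100 units, up to 75739, while the highest on the other arrays were 55 and 60, and the local background was limited to 100 before correction. The 4 kept probes for Dido1, the mutated gene, differed in direction. The brightest had a mean of -0.54 ± 0.93 (adjusted p = 0.494 with limma), 1 was lower in the mutant at -3.60 ± 0.17 (adjusted p = 0.0310), and 2 were higher at 2.35 ± 0.40 (0.0341) and 3.03 ± 0.34 (0.0310), so 3 of the 4 probes separated the labelled genotypes, while the brightest had ratios of -1.61, 0.05 and -0.07. Embryoid bodies are mixtures, and in these bulk samples fewer cells of a type and less RNA per cell cannot be told apart.

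Printed here are the probes of Tnnt2 and Tnni1, the genes that passed the test, of Myl7, the thick filament gene with the highest mean ratio, and of Tnnc1, which shared little with them. Each is 60 bases long and covers more than 60 bases of the mm9 genome, so that it crosses an exon junction and shows which stretch of the spliced transcript was measured.
Tnnt2 (chr1:137747976-137748288, plus strand): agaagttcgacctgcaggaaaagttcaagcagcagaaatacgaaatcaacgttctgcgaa
Tnni1 (chr1:137705328-137706203, plus strand): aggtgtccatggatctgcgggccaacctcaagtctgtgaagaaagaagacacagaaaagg
Tnnc1 (chr14:32023360-32023776, plus strand): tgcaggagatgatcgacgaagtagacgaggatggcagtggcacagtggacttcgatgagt
Myl7 (chr11:5798186-5798435, minus strand): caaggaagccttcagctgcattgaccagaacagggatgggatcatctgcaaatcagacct
None of the 12 probes shared a run of 20 bases with a probe of another gene on the array.

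The mutant embryoid bodies had more RNA of 2 of the 10 sarcomere genes at the adjusted threshold, troponin T (Tnnt2, 8.97-fold) and fetal troponin I (Tnni1, 6.21-fold), and none was lower. Over all 19667 genes, each taken by its brightest kept probe, 1.89% were higher and 0.641% lower by the same limma test at an adjusted p under 0.05, and over all 25496 probes tested 1.92% and 0.682%. At an unadjusted p under 0.05, 8 of the 10 were higher, beside 12.2% of all genes. On all 3 arrays 9 of the 10 were higher in the mutant (all but Tnni3), beside 22.5% of all genes. At least 2-fold on every array were 6 of the 10, Tnnt2, Tnni1, Actc1, Myh6, Myl2 and Myl7, beside 3.10% of all genes. The mutant and wild-type intensities did not overlap for 5 of the 10, Tnnt2, Tnni1, Actc1, Myh6 and Myl4, beside 13.0% of all genes. The median over the 10 mean ratios was 2.76, against -0.01 over all genes. Without the limit on the local background no probe on the arrays passed, and Tnnt2 and Tnni1 had ratios of 2.77 and 2.24 with an adjusted p of 0.166. The calls also ended with no filter on dim probes (adjusted p = 0.0594 for Tnnt2 and 0.0539 for Tnni1) and with the authors' deposited table (0.0530 for both), and without array 1 (0.145 and 0.141) or array 3 (0.102 and 0.109).

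**Figure D1:**
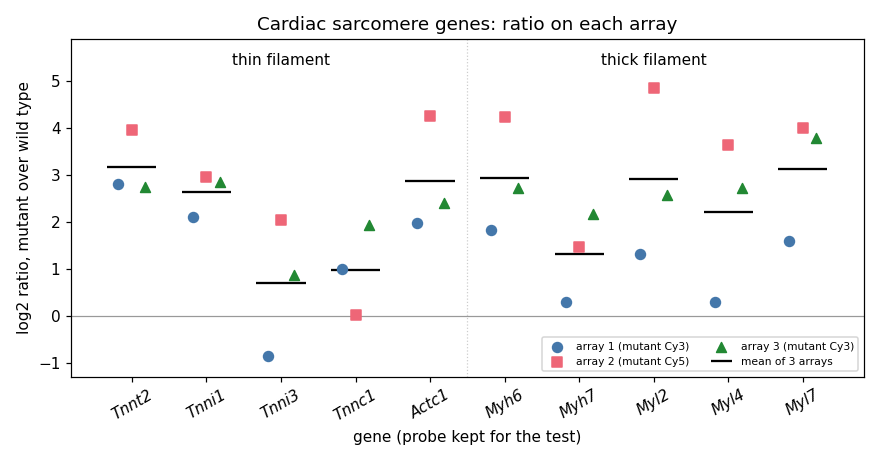
Log2 ratio of mutant over wild type (vertical axis) for the kept probe of each of the 10 genes (horizontal axis), 1 point per array, with a bar at the mean of the 3 arrays. The array 2 points lie highest for 8 genes, the array 1 points lie lowest for 8, and 1 point on array 1 (Tnni3, -0.85) is clearly below 0.

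Tnnt2 encodes cardiac troponin T, which ties the troponin complex to tropomyosin. Its normalized intensity was 3799, 8610 and 10056 in the 3 mutant RNAs and 547, 554 and 1505 in the wild-type RNAs of the same arrays. Every mutant value was above every wild-type value, and the wild-type RNA of array 3 was the highest of its group. The ratios of 2.80, 3.96 and 2.74 had a mean of 3.16 ± 0.69 (n = 3, adjusted p = 0.0341 with limma), higher in the mutant on 3 of 3 arrays.

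Tnni1 encodes the slow skeletal troponin I of the fetal heart, the inhibitory subunit. Its intensity was 3065, 3641 and 3245 in the mutant and 714, 471 and 450 in wild type. The mutant values were the most even of any of the 10 genes, the highest being 1.19 times the lowest, and the groups did not overlap. With ratios of 2.10, 2.95 and 2.85, the mean was 2.63 ± 0.46 (adjusted p = 0.0318), again higher on 3 of 3 arrays. Tnnt2 and Tnni1 lie near each other on chromosome 1, with Lad1, a gene of an anchoring protein of basement membranes, between them in the RefSeq annotation of GRCm38.p6. Lad1, which was looked up after its values were seen, had ratios of 0.95, 0.18 and 0.66.

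Tnni3 encodes the adult cardiac troponin I. It gave 284, 2434 and 1168 in the mutant and 512, 593 and 639 in wild type. The wild-type values were within 1.25 times of each other, while the mutant value was below them on array 1 and above them on arrays 2 and 3. Ratios of -0.85, 2.04 and 0.87 averaged 0.68 ± 1.45 and did not pass (adjusted p = 0.559).

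Tnnc1, the calcium-binding troponin C of heart and slow muscle, showed 2102, 3316 and 2847 in the mutant and 1048, 3291 and 748 in wild type. Here the wild-type RNA of array 2 was as bright as the mutant RNA beside it, and the groups overlapped through that value alone. The ratios were 1.00, 0.01 and 1.93, with a mean of 0.98 ± 0.96 (adjusted p = 0.259). Without array 2 the mean was 1.47, with an adjusted p of 0.0296.

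Actc1, the actin of the cardiac thin filament, measured 5044, 16837 and 15062 in the mutant and 1277, 882 and 2872 in wild type. All mutant values exceeded all wild-type values. Its ratios of 1.98, 4.25 and 2.39 gave a 7.34-fold mean (2.88 ± 1.21) that did not pass (adjusted p = 0.0589).

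None of the 5 thick filament genes passed at an adjusted p under 0.05, although all 5 were higher on every array and had an unadjusted p under 0.05. Myh6 encodes alpha-myosin, the fast heavy chain. Its intensity was 1513, 14269 and 9759 in the mutant and 424, 761 and 1482 in wild type. The lowest mutant value, on array 1, was only just above the highest wild-type value, on array 3. Its ratios were 1.83, 4.23 and 2.72, with a mean of 2.93 ± 1.21 (7.61-fold, adjusted p = 0.0576). The second Myh6 probe, near the 5′ end of the transcript model, gave ratios of -0.002, 0.30 and 0.03 at background brightness and carries no estimate.

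Myh7 encodes beta-myosin, the slow heavy chain. Values of 1164, 8489 and 7815 in the mutant faced 952, 3065 and 1746 in wild type. The groups overlapped because the mutant RNA of array 1 stayed below the wild-type RNAs of arrays 2 and 3. Its ratios of 0.29, 1.47 and 2.16 averaged 1.31 ± 0.95 (adjusted p = 0.163).

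Myl7, the atrial regulatory light chain, was at 1657, 26883 and 18225 in the mutant and at 549, 1692 and 1326 in wild type. The mutant RNAs of arrays 2 and 3 were far above every wild-type RNA, and that of array 1 was just below the wild-type RNA of array 2. Ratios of 1.59, 3.99 and 3.78 gave a mean of 3.12 ± 1.33, or 8.70-fold (adjusted p = 0.0589).

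Myl2, the ventricular regulatory light chain, was at 330, 9054 and 6200 in the mutant and at 133, 312 and 1045 in wild type. The mutant values spanned 27.4-fold and the wild-type values 7.87-fold, the widest ranges among the 10 genes. The ratios of 1.31, 4.86 and 2.57 averaged 2.91 ± 1.80 (adjusted p = 0.108). Its second probe had ratios of 0.13, 0.02 and 0.02 at background brightness.

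Myl4, the essential light chain of the atria and the fetal heart, showed 4484, 26463 and 21991 in the mutant and 3683, 2135 and 3352 in wild type. Arrays 2 and 3 separated the genotypes widely, whereas on array 1 the mutant exceeded the wild-type RNA by 1.22 times. The mean of 0.28, 3.63 and 2.71 was 2.21 ± 1.73 (adjusted p = 0.163).

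**Figure D2:**
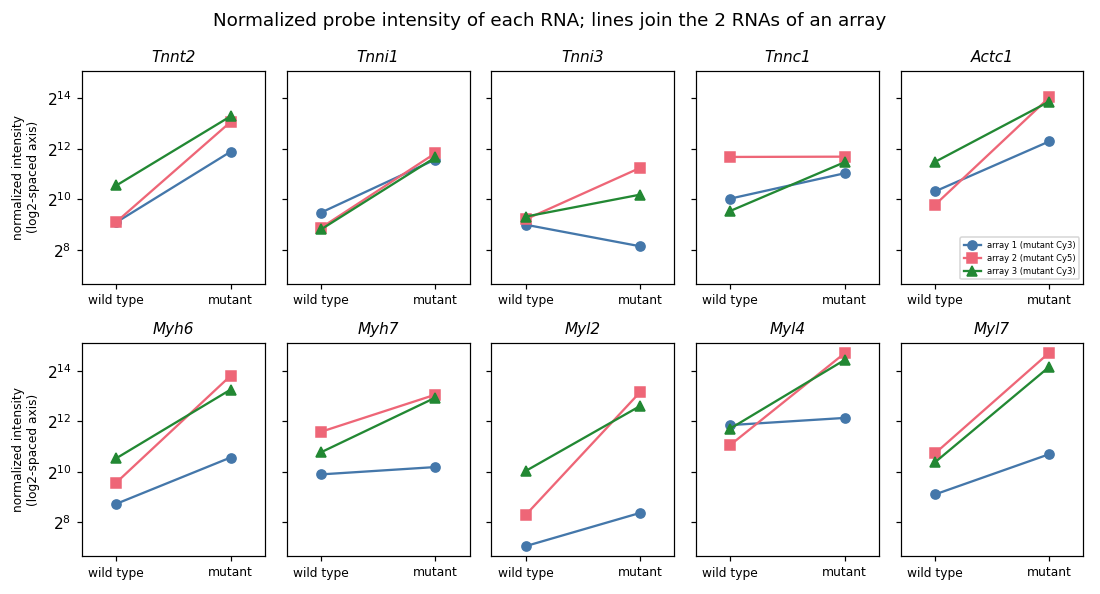
Normalized intensity (vertical axes, log2-spaced, arbitrary units) of wild-type and mutant RNA for the kept probe of each of the 10 genes, with a line joining the 2 RNAs of each array. The lines of Tnni1 run close together, the mutant RNA of array 1 is the lowest mutant point in all 10 panels, and the wild-type points of Tnnc1 and Myl2 are spread widely.

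The mutant RNA of array 1 had the lowest mutant intensity for each of the 10 genes, beside 29.9% of all genes. These intensities were scaled between arrays, so that the mean log brightness of the 2 channels had the same distribution on each array. Before correction and scaling, the median spot intensity of the mutant channel was 192, 205 and 288 on arrays 1, 2 and 3. For Myl2, Myl7, Myh6, Tnni3 and Myh7 the highest mutant RNA exceeded that of array 1 by 27.4, 16.2, 9.43, 8.58 and 7.30 times. Tnnt2, Tnnc1 and Tnni1 ranged by 2.65, 1.58 and 1.19 times over the same RNAs. Array 1 gave the lowest of the 3 ratios for 8 of the 10 genes, beside 22.2% of all genes. Array 2 gave the highest for 8, beside 39.9% of all genes. The median ratio of the 10 genes was 1.45 on array 1, 3.80 on array 2 and 2.64 on array 3. Leaving out array 2, 7 of the 10 passed as higher (Tnnt2, Tnni1, Tnnc1, Actc1, Myh6, Myl7 and Myl2), beside 16.5% of all genes higher and 11.4% lower in that fit, so calls increased across the whole array. Without array 1 or without array 3, 0 of the 10 and 0 of all probes passed. A fit with a dye term, which gives the single array of the other dye order as much weight as the other 2 arrays together, called 6 of the 10 higher, beside 8.89% of all genes higher and 5.81% lower.

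The isoform pairs ask whether one partner changed more than the other on the same array, which does not depend on setting the brightness of different probes against each other. An exact sign-flip test over 3 arrays, two-sided, cannot go below p = 0.25, so none of the 5 pairs could pass. Fetal troponin I had the higher ratio of the troponin I pair on each array. Tnni3 minus Tnni1 was -2.95, -0.91 and -1.98, with a mean of -1.95 ± 1.02 (exact p = 0.25, 0.417 adjusted over the 5 pairs). In the heavy chains, the alpha form had the higher ratio on each array. Myh6 minus Myh7 was 1.54, 2.76 and 0.56, with a mean of 1.62 ± 1.10 (exact p = 0.25, 0.417 adjusted).

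The atrial light chain genes both had high mean ratios, and of their ventricular partners Myl2 had a high one and Myl3 a negative one. Between the regulatory light chains, Myl7 minus Myl2 was 0.28, -0.87 and 1.21, a mean of 0.21 ± 1.04 (exact p = 0.75, 0.938 adjusted) whose sign differed between arrays. Between the essential light chains, Myl4 minus Myl3 was 1.05, 4.79 and 2.52, a mean of 2.79 ± 1.88 (exact p = 0.25, 0.417 adjusted). Myl3, the ventricular and slow skeletal essential light chain, was at 7857, 14461 and 6724 in the mutant and 13368, 32283 and 5879 in wild type. Its ratios were -0.77, -1.16 and 0.19, with a mean of -0.58 ± 0.70 (adjusted p = 0.379), so it did not share the high ratios of the 10 genes. For the actins, Actc1 minus skeletal Acta1 was -0.39, 3.59 and -0.23, a mean of 0.99 ± 2.25 (exact p = 1). Acta1 itself had ratios of 2.37, 0.67 and 2.62 (1.89 ± 1.06, adjusted p = 0.102), below those of Actc1 on array 2 and slightly above them on arrays 1 and 3.

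**Figure D3:**
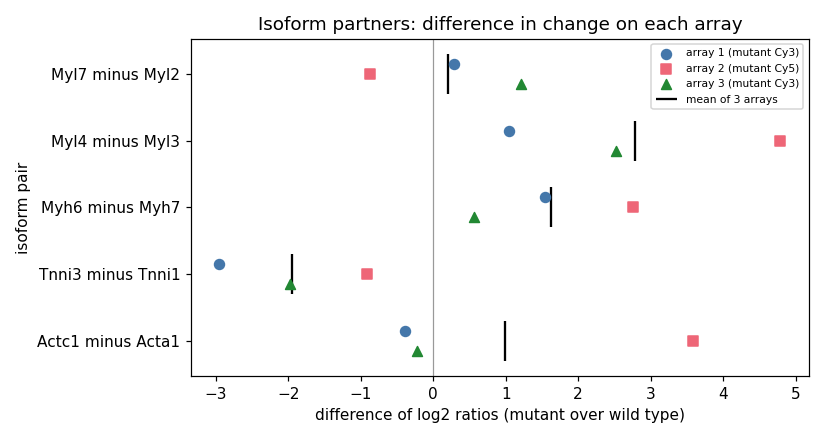
Difference of log2 ratios between the partners of 5 isoform pairs (horizontal axis, log2 units), 1 point per array and a bar at the mean. All 3 points lie above 0 for Myl4 minus Myl3 and Myh6 minus Myh7 and below 0 for Tnni3 minus Tnni1, while the points of the other 2 pairs lie on both sides of 0.

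Of a list of 25 other sarcomere and Z-disc genes of heart muscle, 19 were tested, 1 rose and none fell, with 12 higher and 1 lower on all 3 arrays and a median ratio of 0.82. The lower one was Fhod3, a formin that assembles sarcomeric actin, at -1.65, -1.59 and -0.61 (-1.28 ± 0.58, adjusted p = 0.0922). The gene that rose was Myom1, whose product links myosin tails at the M-band, at 1.98 ± 0.61 (adjusted p = 0.0486, 3 of 3 arrays). Its intensity was 322, 970 and 1034 in the mutant and 132, 202 and 198 in wild type, without overlap. Csrp3, the Z-disc protein MLP, had 2.62 ± 1.01 (adjusted p = 0.0543). Pdlim5, a Z-disc adaptor, had 1.33 ± 0.28 (adjusted p = 0.0529) by its brightest probe, and of its other probes 1 had 1.52 (0.0433) and 1 had 0.61 (0.310). Mybpc3, cardiac myosin-binding protein C, had ratios of 4.26, 1.62 and 3.13 (a mean of 8.02-fold, adjusted p = 0.0623). There array 2 was the lowest, and its wild-type RNA of 1800 stood above the other wild-type values of 245 and 536, a pattern shared with Tnnc1 and Acta1.

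Titin, the giant spring that spans from Z-disc to M-band, had 4 probes, of which 2 were tested. The brighter gave 0.31, 2.64 and 2.08, a mean of 1.68 ± 1.21 (adjusted p = 0.152), and was well above background in wild type on 2 of 3 arrays. The other gave 0.41, 0.12 and 1.53, a mean of 0.69 ± 0.74 (adjusted p = 0.324), and the remaining 2 probes were not above background in either genotype on all arrays. The brighter probe was lowest on array 1 and highest on array 2, and the other was lowest on array 2 and highest on array 3.

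Among 18 genes of cardiac transcription factors, ion handling and membrane proteins, 15 were tested, 4 rose and none fell, with a median of 0.75. Those 4 were the transcription factor genes Hand2 (3.04 ± 0.33, adjusted p = 0.0310), Tbx5 (1.74 ± 0.25, 0.0379), Hand1 (1.82 ± 0.30, 0.0379) and Nkx2-5 (1.75 ± 0.50, 0.0492), each higher on 3 of 3 arrays. Hand2 did not have the low array 1 of the sarcomere genes, with ratios of 3.31, 3.14 and 2.66. Of 9 atrial chamber markers 7 were tested, and 2 rose, Tbx5 and Nppa, the atrial natriuretic peptide gene (2.46 ± 0.74, adjusted p = 0.0449), while the median of the list was -0.31. Of 9 ventricular markers, which include Mybpc3 and Myl3, 8 were tested, none passed in either direction (3 had an unadjusted p under 0.05), and the median was -0.11.

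Several of the 10 genes are also used outside the heart, so the other muscle types were read beside them. Of 18 skeletal muscle isoform genes 12 were tested and none passed. At an unadjusted p under 0.05 with limma, 4 were higher and 1 lower, beside 2403 and 1565 of all 19667 genes. The median of their mean ratios was 0.16, and the medians on arrays 1, 2 and 3 were -0.22, 0.25 and 0.94. Summed intensities were 5503 to 8112 in the mutant and 3483 to 8194 in wild type. Of 7 skeletal muscle regulators 3 were tested and none passed, at an adjusted or an unadjusted p under 0.05: Pax7 (-0.40 ± 0.53), Pax3 (-0.62 ± 1.18) and Mymk (-0.03 ± 0.35). Pax3 and Mymk were well above background on all 3 arrays in both genotypes, and Pax7 on all 3 in wild type and on 1 in the mutant. Of the untested 4, Myod1 was well above background on 2 of 3 arrays in each genotype, and Myog, Myf5 and Myf6 on none. Of 10 smooth muscle genes 9 were tested and 1 rose, Acta2, smooth muscle actin, which early cardiomyocytes also make, at 2.36 ± 0.14 (adjusted p = 0.0310, 3 of 3 arrays). The median of the list was 0.59, with 6 of the 9 higher on all 3 arrays and none lower on all 3. Cnn1 was lower on arrays 1 and 2, with ratios of -2.02, -1.66 and 0.69 (adjusted p = 0.402 with limma). The summed intensity of the smooth muscle list was 48535 to 55060 in the mutant and 13451 to 29158 in wild type. Most of the mutant sum came from Acta2, at 30632, 32162 and 28165, beside 5974, 6858 and 4955 in wild type. The part of smooth muscle in the sarcomere ratios was not tested.

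Markers of other tissues of the embryoid body moved as well. Of 6 endothelial genes, Flt1 (3.06 ± 0.39, adjusted p = 0.0310) and Kdr (2.27 ± 0.59, 0.0410) rose by their brightest probes, and their other kept probes did not pass, at 0.19 and 0.17 for Flt1 and 0.40 for Kdr. The list median was 0.90, with 5 of the 6 higher on all 3 arrays and Cdh5 at -0.03 ± 0.40. The summed endothelial intensity was 19662 to 32238 in the mutant and 4818 to 5081 in wild type. Most of the mutant sum came from the brightest Flt1 probe, at 23186, 14508 and 15158. Of 6 visceral endoderm genes 1 rose, Ttr at 2.59 ± 0.69 (adjusted p = 0.0399), with a list median of 2.34 and sums of 241000 to 393520 against 35787 to 137440. That median was 3.40 on array 1, 1.03 on array 2 and 2.29 on array 3, the reverse order of the arrays from that of the 10 sarcomere genes. Of 6 neuronal genes 1 fell, Stmn2 at -1.76 ± 0.52 (adjusted p = 0.0499). The list median was -1.83, and 4 of the 6 were lower on all 3 arrays, beside 3764 of all 19667 genes. Elavl3 had ratios of 0.70, 0.64 and -0.51, and Nefl had 0.39, 1.16 and -2.16. Summed intensities of this list were 3478 to 4301 in the mutant and 3510 to 20356 in wild type. The part of these cell types in the sarcomere ratios was not tested.

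**Figure D4:**
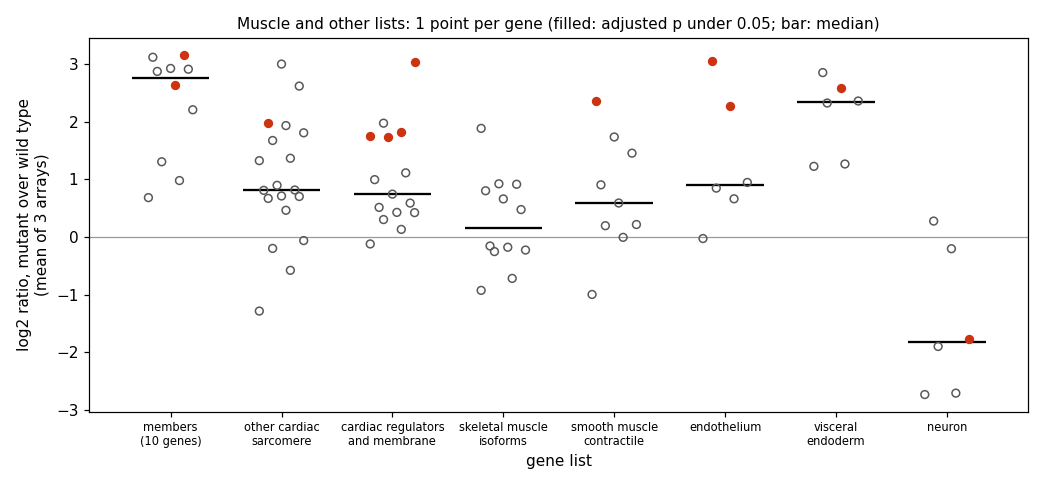
Mean log2 ratio of mutant over wild type (vertical axis), 1 point per tested gene in each list (horizontal axis), filled where the adjusted p was under 0.05, with a bar at the list median. The 10 sarcomere genes have a median of 2.76 and the other cardiac sarcomere genes 0.82, while the skeletal isoforms are centred near 0 at 0.16.

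Outside the 10, the genes whose 3 ratios lay nearest to the median ratios of the 10 sarcomere genes (1.45, 3.80 and 2.64), by Euclidean distance over the 3 arrays, were Csrp3 at a distance of 0.29, Bves at 0.66, Nppa at 0.68, Ppig at 0.89 and Cd59a at 0.91. Bves encodes a membrane protein of heart and skeletal muscle, Ppig a cyclophilin that binds splicing factors, and Cd59a an inhibitor of complement. Their mean ratios were 2.62 for Csrp3, 2.43 for Bves, 2.46 for Nppa, 2.84 for Ppig and 2.29 for Cd59a. With 3 arrays, such nearness describes these samples only.

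Short motifs were looked up in the 250 bases before each annotated start, from RefSeq promoters of GRCm38.p6, which gave 14 starts for the 10 genes among 32851 starts of all genes. The M-CAT box CATTCC, bound by TEAD factors, was found in 5 of the 10 genes (Tnnt2, Tnnc1, Myh6, Myh7 and Myl7, 5 of 14 starts) and before 12.6% of all starts. A CArG box, bound by serum response factor, was found in Actc1 and Myl7 (2 of 14 starts) and before 1.47% of all starts. The GATA motif AGATAA was found in Tnnt2 and Myl2 (2 of 14 starts) and before 9.99% of all starts. The E-box CANNTG was found in 8 of the 10 genes (12 of 14 starts) and before 66.2% of all starts. The MEF2 box (2.92% of all starts), the Nkx2-5 motif CACTTGA (2.68%), which contains an E-box, and TATAAA (7.59%) were in none of these windows. All were searched on both strands apart from TATAAA, which was read on the gene's strand and can overlap a MEF2 box. A match is a description of letters and not a bound site.

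The 150 bases before the start are printed for Tnnt2, the gene with the highest mean ratio, and for Myl7 and Actc1, the genes with a CArG box. Capitals mark CATTCC in Tnnt2 and Myl7 and the CArG box in Myl7 and Actc1.
Tnnt2 (chr1:135836184-135836333, plus strand): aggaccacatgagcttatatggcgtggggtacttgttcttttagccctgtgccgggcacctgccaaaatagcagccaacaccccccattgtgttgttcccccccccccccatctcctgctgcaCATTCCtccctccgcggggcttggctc
Myl7 (chr11:5898783-5898932, minus strand): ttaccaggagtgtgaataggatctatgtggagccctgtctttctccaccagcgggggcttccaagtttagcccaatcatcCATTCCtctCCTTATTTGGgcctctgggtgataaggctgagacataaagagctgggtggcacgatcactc
Actc1 (chr2:114052876-114053025, minus strand): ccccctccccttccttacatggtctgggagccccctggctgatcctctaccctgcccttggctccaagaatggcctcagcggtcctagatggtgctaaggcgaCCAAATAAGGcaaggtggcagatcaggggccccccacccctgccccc
In Myl7 the M-CAT box starts at position -70 and the CArG box at -61 from the annotated start, in Actc1 the CArG box starts at -47, and in Tnnt2 the M-CAT box starts at -27.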

How the data were processed

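Day 10 RNA of 3 mutant and 3 wild-type cultures was measured on 3 Agilent mouse 4x44K arrays. Per the file headers, the deposited scanner files hold spot and background intensity, a log10 ratio of red over green and mm9 coordinates, made with Feature Extraction 10.7.3.1. The authors' deposited table holds log2 ratios, for which the submitters' notes name limma without the background or centring steps. Against the scanner ratios of 10742 spots its columns had slopes of 0.910, 0.932 and 0.974 and medians of -0.01, 0.02 and -0.01.

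In R 4.3.3 with limma 3.58.1, intensities were corrected by normexp (offset 50, local background limited to 100) and loess, in which control spots had weight 0. Control and outlier spots were dropped, repeat spots averaged, and 25496 of 39429 probes kept, those that 1 genotype or both showed well above background on all 3 arrays. The lmFit and eBayes test compared each ratio with 0, two-sided, adjusted by Benjamini-Hochberg over all kept probes at 0.05. The brightest kept probe stood for a gene. Intensities of each RNA are those of its channel after loess and quantile scaling of mean log brightness between arrays, in arbitrary units. The ratios were not scaled between arrays. RefSeq accessions named 27234 probes, current symbols 3576 and synonyms 565, while 8054 kept the name in the file. The fit was tested on simulated data. Genes named outside the 10 are up to 4 of each list with the smallest p, isoform partners, titin, Dido1 and the 5 nearest by distance. Lad1, Fhod3, Cdh5, Cnn1, Elavl3, Nefl and the untested skeletal regulators were named outside this rule, after their values were seen. The genes, the lists, this rule and the background limit were chosen with earlier results of these data known.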

Additional observations from a re-analysis of the deposited data

How the results depend on the processing

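All 10 genes kept a positive mean ratio in all 16 alternatives, with Tnnt2 between 2.75 and 3.38 and Tnni1 between 2.19 and 2.90, and none was called lower in any. The number called higher, 2 as reported, was 5 with a normexp offset of 16, 4 with the scanner's log ratio, 6 with a dye term and 5 with an intensity trend in the prior; it was 0 with no limit on the background, with no filter and with the authors' values, and 0 to 7 when each replicate was left out. Over all probes, 490 higher and 174 lower became 837 and 302 with the offset of 16, 951 and 364 with the scanner's ratio, 2329 and 1571 with the dye term, 776 higher with the trend, 114 lower with a limit of 200, 249 and 76 with 1 probe per gene, and 0 to 4243 and 0 to 2948 when each replicate was left out. The counts were 0 and 0 with no limit (3985 probes at an unadjusted p under 0.05), with no filter (6665) and with the authors' values (5201), where the smallest adjusted p were 0.166, 0.0510 and 0.0530; without replicate 1 and without replicate 3 they were also 0 and 0 (2269 and 3167). The cause of these changes was not tested. Each fit with a left-out replicate had 2 arrays, and the one without replicate 2 gave the 4243 higher and 2948 lower. The mean of Myl7 minus Myl2 turned negative with the scanner's ratio (-0.10), the dye term (-0.06) and without replicate 3 (-0.29), and Actc1 minus Acta1 without replicate 2 (-0.31); the other 3 pairs kept their sign. The filters and the trend leave the ratios behind the pairs as they are. The test on ratios is already paired by array, because each array sets 1 mutant against 1 wild-type RNA. No further pairing was possible, because the arrays have no other shared number. Precision is limited by 3 arrays, and for the second Myh6 and Myl2 probes by signal near background.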
